A study of Mus musculus with 6 samples.

Results

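A table of small RNAs from cultured mouse bone marrow cells held 1452 features, of which 268 were annotated as piRNAs and 1184 as miRNAs. The 268 piRNA features were taken by name alone, as those whose name contains piR-, and no measured value entered the choice. They are described here in L28BME cells, labelled with the genotype LIN28B MLL-ENL (n = 3 libraries), and in ME cells, labelled MLL-ENL (n = 3 libraries). Both groups carry the MLL-ENL fusion gene of leukaemia, and LIN28B, a fetal RNA-binding protein known to block the maturation of let-7 miRNAs, sets L28BME apart. Both were sorted as cells named GMLP in the labels and grown for 3 days with doxycycline (DOX), a drug used to switch on inducible transgenes. The promoters behind the transgenes and the age of the mice are not stated in the labels. Whether the libraries of a group came from different mice or cultures is not stated either, so the p-values rest on a spread between libraries that may be technical only.

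piRNAs are small RNAs, somewhat longer than miRNAs, that are made without the enzyme Dicer and are loaded onto PIWI proteins instead of the AGO proteins that carry miRNAs. They are best known from the germ line, where PIWI complexes silence transposons and where precursor transcripts from piRNA clusters are cut into many single piRNAs. Database entries named piR- come largely from sequencing of germ cells, and some of them share sequence with fragments of tRNA, rRNA or other abundant noncoding RNA. A read that matches such an entry in a blood cell is therefore an annotated small RNA, and binding by a PIWI protein was not measured. The table gives names without sequence or position, so no locus or function is attached to a member below, and overlap with other RNAs was not tested.

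The L28BME libraries held 2745970 to 4332618 reads and the ME libraries 4778027 to 5528960. The let-7 features took 3.26% ± 0.0473 of reads in L28BME and 26.3% ± 0.703 in ME (SD, n = 3 each), the direction that LIN28B is known for. The blood cell markers miR-142a-3p and miR-142a-5p and the myeloid miR-223-3p and miR-223-5p were present in every library. Deposited values are scaled reads, and 1 read was worth 0.189 to 0.312 in L28BME and 0.221 to 0.237 in ME. The binomial intervals of shares below cover counting error only, while the intervals of log2 changes come from limma and rest on the spread between libraries.

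On the deposited scale, the summed piRNA signal did not differ between the groups beyond the spread between libraries. Its summed deposited value was 4264, 3874 and 3876 in the L28BME libraries and 3838, 4073 and 4095 in the ME libraries, so the groups overlapped. The means were 4004 ± 224 in L28BME and 4002 ± 142 in ME (SD, n = 3 each), and the difference of 2.41 was far below the spread between libraries (exact permutation test, two-sided p = 1). Beside this total, single members differed in both directions. In these bulk samples a change in the cells that carry an RNA and a change in the RNA per cell cannot be told apart.

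As a share of reads outside let-7, the piRNA features took 0.538% (95% exact binomial interval 0.531 to 0.545), 0.471% (0.464 to 0.479) and 0.467% (0.459 to 0.476) in the L28BME libraries. In the ME libraries they took 0.427% (0.421 to 0.434), 0.451% (0.445 to 0.458) and 0.496% (0.488 to 0.503). The ME library 003 lay above 2 of the 3 L28BME libraries. The means were 0.492% ± 0.0396 in L28BME and 0.458% ± 0.0349 in ME (SD, n = 3 each), a difference of 0.0343 percentage points that did not pass (exact permutation test, two-sided p = 0.4). Without L28BME library 004, the highest of the 6, the difference was 0.0115 percentage points in place of 0.0343.

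Measured against all reads the same features took 0.521%, 0.456% and 0.452% in L28BME and 0.317%, 0.334% and 0.361% in ME, with no overlap. The means were 0.476% ± 0.0384 in L28BME and 0.337% ± 0.0225 in ME (SD, n = 3 each), 1.41-fold apart. The exact permutation test gave a two-sided p of 0.1, below which a comparison of 3 with 3 cannot go. The 2 shares have the same piRNA reads on top and differ in whether let-7 reads are counted below, and those let-7 reads were 3.26% of the total in L28BME and 26.3% in ME.

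**Figure D1:**
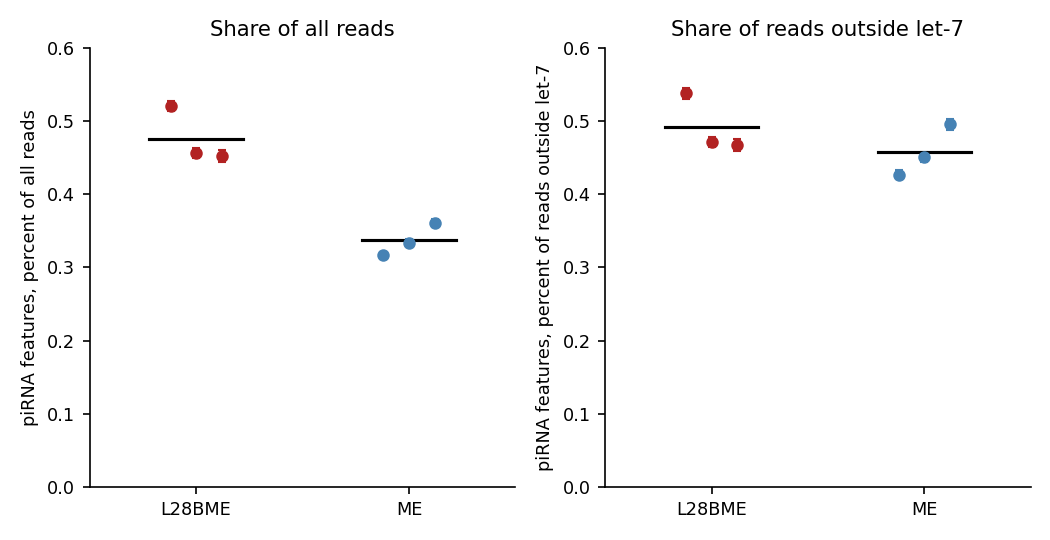
Share of reads taken by all 268 piRNA features, in percent, in each L28BME and ME library (points, with 95% exact binomial intervals, and lines at the group means), for all reads on the left and for reads outside let-7 on the right. The groups stand apart on the left, at 0.476% in L28BME and 0.337% in ME, and overlap on the right, at 0.492% in L28BME and 0.458% in ME.

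The piRNA signal was carried by few members. Over all 6 libraries the class had 103593 reads, of which piR-5114 alone took 29.0%, the 5 most abundant 61.8% and the 20 most abundant 91.0%. At the other end 116 of the 268 features (43.3%) had a single read in all 6 libraries together, against 140 of the 1184 miRNAs (11.8%). The median piRNA feature had 2 reads and the median miRNA 28.5. A read was found in every library for 81 piRNA features, and in a single library for 121.

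Detection did not set the groups apart for any well-covered member. There were 62 piRNA features with reads in L28BME alone and 70 with reads in ME alone, but the best covered of them had 2 reads in L28BME and 4 in ME. piR-67897 had 0 reads in all 3 L28BME libraries and 2, 1 and 1 in ME. piR-8429 likewise had 0 in L28BME and 1 in each ME library. A count of 0 allows up to 3 reads over the group, so the 4 and 3 reads in ME lie 1 read above that limit for piR-67897 and at it for piR-8429, and no difference is drawn from them.

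The most abundant member, piR-5114, had values of 1196, 1009 and 1148 in the L28BME libraries and of 1041, 1281 and 1304 in the ME libraries. The groups overlapped, and the log2 change was -0.11 (95% interval -0.32 to 0.11, limma adjusted p = 0.378). It made up 27.9% ± 1.78 of piRNA reads in L28BME and 30.1% ± 2.63 in ME (SD, n = 3 each). With plain library-size scaling it was past the threshold and higher in L28BME (0.39, limma adjusted p = 0.00428). That scaling also moved the median change of all features tested from -0.012 to 0.49. The change of piR-5114 lay below that median under both scalings.

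On the deposited scale piR-38315 and piR-19271, the next members down, were just as even. piR-38315 had 399, 434 and 432 in L28BME and 436, 416 and 392 in ME (log2 change 0.025, 95% interval -0.16 to 0.21). piR-19271 had 422, 343 and 351 in L28BME and 359, 379 and 357 in ME (0.023, interval -0.19 to 0.23). In both the groups overlapped, and neither passed the test. piR-58792 had 280, 222 and 224 in L28BME and 257, 278 and 328 in ME, with overlap and a log2 change of -0.25 (limma adjusted p = 0.0818). It passed in 4 alternatives, at a limma adjusted p of 0.0183 without L28BME library 004, of 0.0348 without ME library 001, of 0.0249 with sample weights and of 0.0483 with median-ratio factors. With plain library size its change was 0.25 and did not pass (limma adjusted p = 0.0992). Of the 10 most abundant members piR-22375, piR-69027 and piR-60414 also did not pass (0.17, 0.017 and 0.051). In piR-22375 the groups did not overlap, with 161, 146 and 136 in L28BME and 135, 132 and 124 in ME. It passed, higher in L28BME, with plain library size and with the total outside let-7. With plain library size piR-38315, piR-19271, piR-69027 and piR-60414 were past the threshold and higher in L28BME as well. Of all features tested, 62.6% were called higher with plain library size and 31.7% with the total outside let-7.

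**Figure D2:**
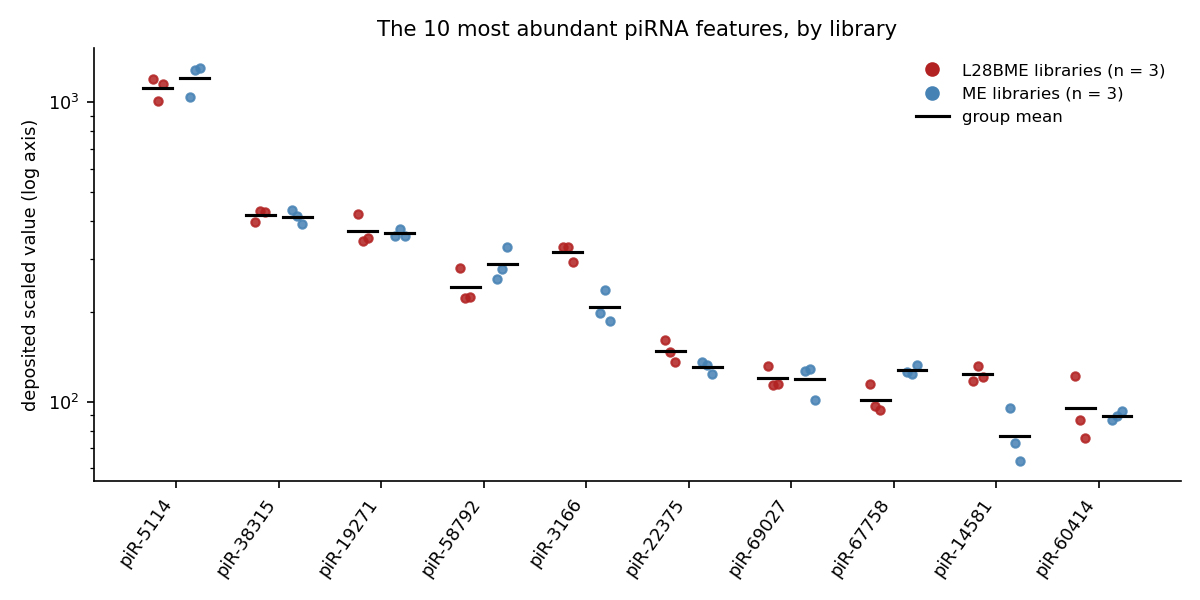
Deposited scaled values (log axis) of the 10 most abundant piRNA features in each L28BME and ME library (points) with the group mean (line). The leading feature, piR-5114, lies near 1118 in L28BME and 1209 in ME with overlapping points, while piR-3166 and piR-14581 lie higher in all L28BME libraries than in any ME library.

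The filter on low values asked for 3 or more libraries with a value of 5 or more. It was passed by 39 piRNA features, which held 97.6% of piRNA reads, and by 387 miRNAs. The other 229 piRNA features were not tested. Changes are differences of log2(value + 1), fitted with limma over all 426 features, and a call is an adjusted p (Benjamini-Hochberg) below 0.05. Of the 39 piRNA features 15 were called (38.5%), 8 higher and 7 lower in L28BME. Over all features tested 54% were called, 23.5% higher and 30.5% lower, so the share of piRNA features called lay below that of the whole table, a difference that was not tested. Values of the groups did not overlap for 17 of the 39 (43.6%), against 59.9% of all features tested. The median log2 change of the 39 was 0.017, beside -0.012 for all features tested. Of the 39, 3 passed the filter through 1 group alone, piR-62566 and piR-68014 through L28BME and piR-3151 through ME, and for those the filter favours a difference.

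**Figure D3:**
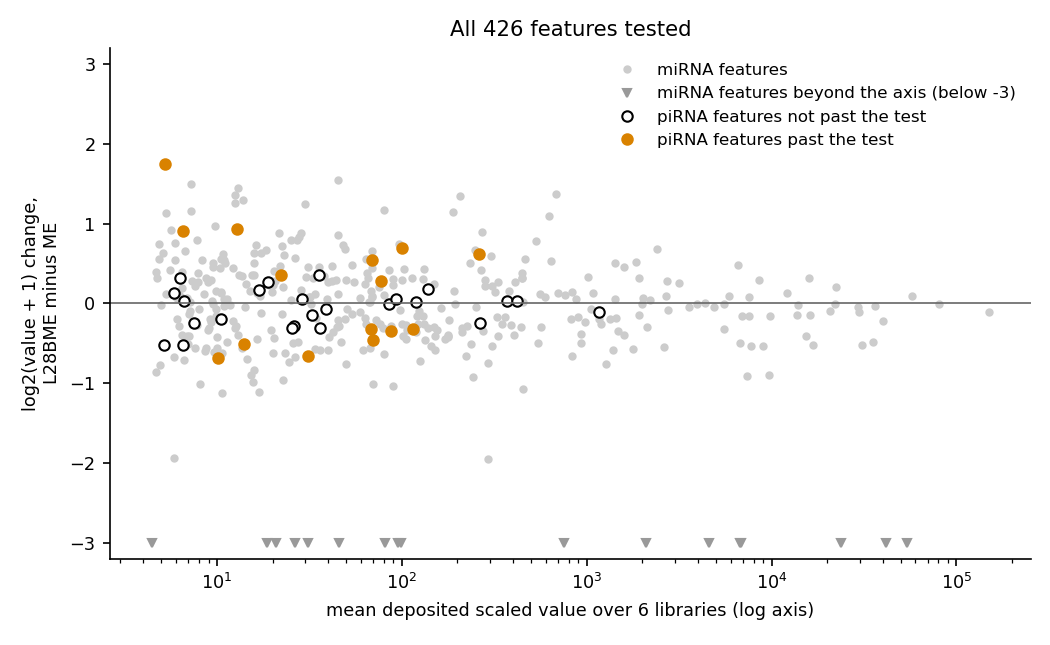
Change on the log2(value + 1) scale, L28BME minus ME, against the mean deposited value over the 6 libraries (log axis) for all 426 features tested. The piRNA features called (filled, 15) and not called (open, 24) lie within the cloud of miRNAs, between -0.68 and 1.75, and triangles at the foot mark miRNAs below -3.

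The largest called rise was that of piR-62566. It had 6.43, 9.47 and 9.99 in the L28BME libraries and 2.32, 1.55 and 1.66 in the ME libraries, so the lowest L28BME library was well above the highest ME library. The mean was 8.63 ± 1.93 in L28BME and 1.84 ± 0.417 in ME (SD, n = 3 each), 4.69-fold higher, from 106 reads in L28BME and 24 in ME. The log2 change was 1.75 (SE 0.23, limma adjusted p = 1.86e-05), the single called piRNA change of at least 1 in size. At so few reads the pseudocount pulls the log2 change below the log2 of the ratio. piR-62566 passed the filter through L28BME alone, which favours a difference, so its adjusted p is to be read with that limit.

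piR-68014, of a like abundance, had 7.75, 9.71 and 9.06 in L28BME and 4.41, 3.97 and 4.27 in ME. The groups did not overlap, and the mean was 2.10-fold higher in L28BME (log2 change 0.91, SE 0.19, limma adjusted p = 0.00103). This member too passed the filter through L28BME alone. piR-7914 had 17.4, 13.0 and 20.3 in L28BME and 12.3, 8.83 and 4.98 in ME, where the libraries ranged more than 2-fold. Its lowest L28BME library lay just above its highest ME library, and the log2 change was 0.94 (SE 0.25, limma adjusted p = 0.00567).

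Another 2 of the risers were abundant. piR-3166, among the 5 most abundant members, had 329, 328 and 293 in L28BME and 198, 237 and 186 in ME. The mean was 1.53-fold higher in L28BME (log2 change 0.62, SE 0.11, limma adjusted p = 0.000218), and its share of piRNA reads was 7.92% ± 0.493 in L28BME and 5.17% ± 0.629 in ME (SD, n = 3 each). piR-14581, among the 10 most abundant, had 117, 132 and 121 in L28BME and 95.1, 72.8 and 63.3 in ME. Its groups were apart as well, with a mean 1.60-fold higher in L28BME (0.69, SE 0.13, limma adjusted p = 0.000633).

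The other 3 risers changed by less. piR-14565 had 87.3, 76.5 and 82.5 in L28BME and 49.8, 59.8 and 59.1 in ME, without overlap (0.54, limma adjusted p = 0.00128). piR-5652 and piR-15406 also had every L28BME library above every ME library, but their changes of 0.36 and 0.28 came close to the threshold (limma adjusted p = 0.0441 and 0.0419). Both lost the call with median-ratio scaling and with both looser filters, piR-15406 also with sample weights and piR-5652 with DESeq2 (adjusted p = 0.0524 to 0.114 over these). piR-15406 also lost it without L28BME library 004, 005 or 006 or ME library 001 or 003 (limma adjusted p = 0.0691 to 0.121), and piR-5652 without L28BME library 005 or 006 or ME library 002 or 003 (limma adjusted p = 0.0775 to 0.165).

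**Figure D4:**
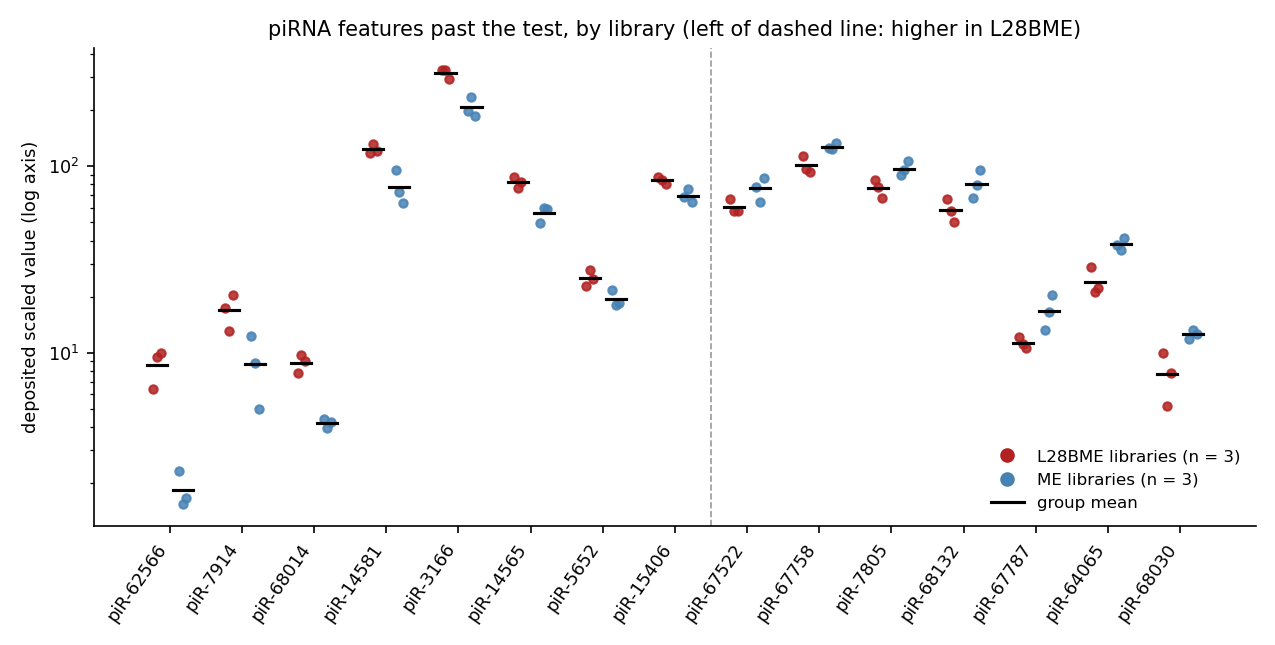
Deposited scaled values (log axis) in each L28BME and ME library (points) with the group mean (line) for the 15 piRNA features past the test, ordered by change. To the left of the dashed line 8 features are higher in L28BME, from piR-62566 at 8.63 in L28BME and 1.84 in ME, and to its right 7 are lower, down to piR-68030 at 7.68 in L28BME and 12.5 in ME.

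The falls were all under 2-fold. piR-64065 had 28.7, 21.3 and 22.2 in L28BME and 37.8, 35.8 and 41.5 in ME, a clear gap. Its mean was 24.1 ± 4.06 in L28BME and 38.4 ± 2.92 in ME (SD, n = 3 each), 1.59-fold lower (log2 change -0.66, SE 0.14, limma adjusted p = 0.00128). This was the fall with the lowest adjusted p, and among the alternatives run it was lost only with plain library-size scaling (-0.18, limma adjusted p = 0.308).

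piR-68030 had the largest fall in size, with 10.02, 5.21 and 7.81 in L28BME and 11.8, 13.2 and 12.6 in ME. The L28BME libraries ranged nearly 2-fold, and the change was -0.68 (SE 0.20, limma adjusted p = 0.0115). Without L28BME library 005 it was -0.46 and did not pass (limma adjusted p = 0.0658), and without ME library 002 the adjusted p was 0.0541. piR-68030 also lost the call with DESeq2. piR-67787 had 12.1, 11.1 and 10.6 in L28BME and 13.2, 16.6 and 20.4 in ME. Here the ME libraries were the ones that ranged, and the change was -0.51 (limma adjusted p = 0.0205). It did not pass without L28BME library 006 (limma adjusted p = 0.0767), ME library 002 (0.0607) or ME library 003 (0.0827), nor with DESeq2.

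piR-68132, a more abundant member, had 66.7, 57.5 and 50.6 in L28BME and 67.7, 79.0 and 95.4 in ME. Its highest L28BME library lay just under its lowest ME library, and the change was -0.46 (limma adjusted p = 0.0125), which did not pass without L28BME library 006 (limma adjusted p = 0.0767). piR-7805 had 84.5, 77.9 and 67.5 in L28BME and 90.0, 95.4 and 106 in ME (-0.34, limma adjusted p = 0.0221). It did not pass without L28BME library 006 (limma adjusted p = 0.142), ME library 002 (0.0544) or ME library 003 (0.0514), nor with edgeR. piR-67758 and piR-67522 fell by 0.33 and 0.32 on the log2 scale (limma adjusted p = 0.0187 and 0.0445). In piR-67522 the groups overlapped, with 66.9 in L28BME library 004 and 64.5 in ME library 002. piR-67758 did not pass without L28BME library 005 (limma adjusted p = 0.0701) or 006 (0.110), and piR-67522 did not without L28BME library 005 or 006 or ME library 001 or 003 (limma adjusted p = 0.0856 to 0.147). The call of piR-67522 was lost in 12 of 18 alternatives, among them edgeR, DESeq2, both looser filters and the forms of limma with weighted samples or no trend (adjusted p = 0.0593 to 0.0794).

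L28BME library 004 was the highest of its group in 7 of the 7 lower piRNA features and in 26 of the 39 tested (66.7%), against 35.7% of all features tested. ME library 003 was the highest of its group in 6 of the 7 lower features and in 17 of the 39 tested (43.6%), against 25.4% of all features tested. Without L28BME library 004, 5 piRNA features were higher and 11 lower of 37 tested, beside 83 and 121 of all 416 features tested. Without L28BME library 006, the shallowest, 4 were higher and 2 lower of 37, beside 68 and 96 of all 415. Leaving out ME library 002 gave 4 lower of 38 tested, beside 98 of all 414. Leaving out ME library 003 gave 4 lower of 38, beside 123 of all 411. The part of these libraries in the falls was not tested.

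Set side by side, the called features were a minor part of the class. The 8 higher features summed to a mean value of 666 in L28BME and 444 in ME. The 7 lower ones summed to 340 in L28BME and 449 in ME. The 24 tested features without a call summed to 2902 in L28BME and 3014 in ME. These sums describe features picked by the same comparison and were not tested.

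The calls depended on the scaling, and 6 of the 8 rises passed under each of the 4 scalings. The deposited values follow TMM scaling, which centres the bulk of features, with median log2 changes of -0.012 over all features tested and 0.017 over the piRNA features tested. With plain library size those medians were 0.49 and 0.48, over 444 and 41 features tested. They were 0.10 and 0.12 with the total outside let-7, and -0.038 and -0.0067 with median-ratio factors. Plain library size and the total outside let-7 thus moved features up in L28BME, which favours rises over falls. Calls kept under them therefore do not show that rises are firmer than falls. With plain library size 23 of 41 piRNA features tested were higher and 0 lower by limma (24 and 0 at an unadjusted p under 0.05), beside 62.6% and 7.43% of all features tested. With the total outside let-7 there were 10 higher and 2 lower (31.7% and 20.9% of all features tested), and all 8 risers and 2 of the 7 falls, piR-64065 and piR-68030, kept their calls. With median-ratio factors 6 risers and all 7 falls kept theirs, among 6 higher and 10 lower in all (22.5% and 33.3% of all features tested). In each of the 4 scalings piR-62566, piR-68014, piR-7914, piR-14581, piR-3166 and piR-14565 were higher in L28BME. Of these, piR-62566 and piR-68014 had passed the filter on the deposited values through L28BME alone, which favours a difference.

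**Figure D5:**
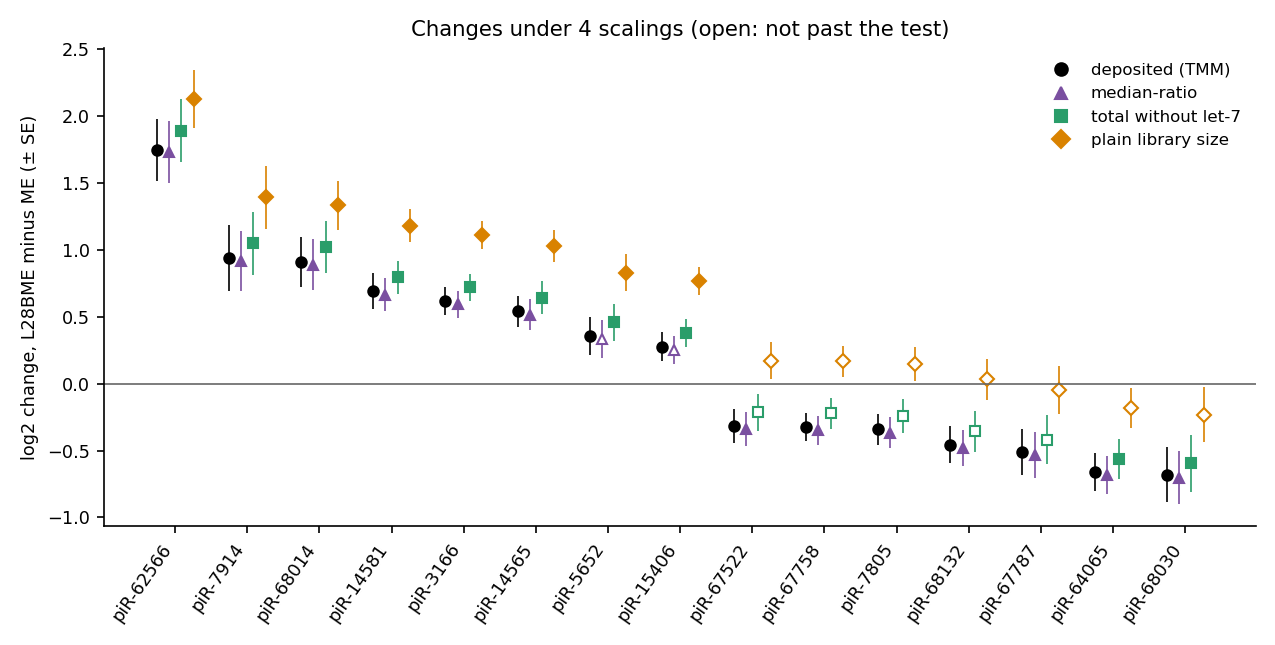
Change on the log2(value + 1) scale, L28BME minus ME, with its standard error, for the 15 called piRNA features under 4 scalings, where open symbols did not pass the test. The 8 risers stay above 0 under every scaling, from 0.25 for piR-15406 with median-ratio factors upward. With plain library size the 7 falls lie between -0.23 and 0.17 and are all open. Plain library size and the total without let-7 raise the median change of all features tested, to 0.49 and 0.10, which favours rises.

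On the recovered reads, edgeR's quasi-likelihood method called 9 of the 39 piRNA features higher and 5 lower, beside 26.8% and 27% of all features tested. DESeq2 called 7 higher and 4 lower, beside 21.1% and 25.8%. Without the filter limma called 6 of the 268 higher and 7 lower, beside 7.64% and 9.3% of all 1452 features. One of these, piR-64009, had been under the filter, with 2 reads in L28BME and 10 in ME.

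The authors' deposited table gave an FDR p under 0.05 to 12 piRNA features, 6 higher and 6 lower, and to 14.9% of all features. All 12 were called in the limma fit in the same direction. piR-15406, piR-5652 and piR-67522, the 3 nearest to the threshold, were called in the limma fit alone. The authors' deposited table gave piR-62566 a log2 fold change of 2.17 and piR-64065 one of -0.64.

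Listed miRNAs of germ cells were scarce. Of 15 listed miRNAs of testis and male germ cells 4 had reads, and for 11 no feature of that name was among the 1452. The 4 summed to 7.50 to 8.997 in L28BME and 11.6 to 14.3 in ME, nearly all of it from miR-34c-5p and miR-449a-5p, which ciliated epithelium makes as well. miR-465b-5p had 1 read in all, and miR-34b-5p reached at most 1.13. Of 10 listed miRNAs of pluripotent and primordial germ cells miR-295-3p had 1 read, and the other 9 had no feature of that name. These sums cover few miRNAs and are not comparable with the sum over the 268 piRNA features. Which cells gave the piRNA reads was not tested.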

How the data were processed

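Total RNA was made into libraries with the QIAseq miRNA kit per the labels' protocols, and the genome build was GRCm38 per the submitters' processing notes. The sources used here do not name the aligner, the counter, the piRNA reference or the use of molecular identifiers. The deposited values are a scaled signal per feature and library, headed CPM by the authors although column sums differ between libraries. All values (100%) were whole multiples of the library's smallest (tolerance 0.001), so whole reads were recovered, and the divisor equals the read total times the edgeR TMM factor. The authors also deposited a comparison of L28BME with ME, as a log2 fold change, a signed score of the fold and raw and adjusted p-values. Columns carry library numbers and not the replicate numbers of the labels. The piRNA class, the lists and the tests were chosen with earlier results of these data known, and the members of the class were taken by name. The test was limma's trend test on log2(value + 1), two-sided, over all 6 libraries. Shares were compared by exact permutation. Alternatives were other scalings, filters, pseudocounts, forms of limma, edgeR and DESeq2 on the recovered reads, a stricter threshold and each library left out. The named members are every called piRNA feature, the 10 most abundant, and any with 0 in all libraries of 1 group and reads in all of the other; others are named beside a count or, in the closing observations, after their values were seen. The code was tested on simulated data. Replicate pairs differed by more than sampling noise over the piRNA features (chi-square per degree of freedom 2.19 to 4.93). The same figure over all features was 11.1 to 59.7. Listed erythroid miRNAs summed to 9.68 to 10.8 in L28BME and 4.41 to 7.12 in ME, and stromal and endothelial ones to 3.78 to 5.92 in L28BME and 4.03 to 6.03 in ME. The listed stem and progenitor miRNAs summed to 21307 to 22569 in L28BME and 18514 to 21126 in ME, without overlap. Among them miR-126a-3p and miR-130a-3p were called higher in L28BME (log2 change 0.48 and 1.35, limma adjusted p = 0.0002 and 1.13e-07). The most abundant of that list, miR-196b-5p, was not called (-0.024, limma adjusted p = 0.817). The fits used limma 3.58.1, DESeq2 1.42.0 and edgeR 4.0.16 in R 4.3.3, with scipy 1.17.1 and matplotlib 3.10.9.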

Additional observations from a re-analysis of the deposited data

How the results depend on the processing

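No paired analysis was possible because the columns carry no replicate numbers, so the replicate block was not run. The difference in the share outside let-7 was positive under every alternative run, at 0.0115 to 0.0533 percentage points when a library was left out, and that in the share of all reads at 0.117 to 0.151. Neither could pass a threshold of 0.05, since the smallest two-sided p is 0.1 for 3 against 3 libraries and 0.2 for 3 against 2. The 15 called features became 23 with plain library size and 7 at an adjusted p under 0.01, and 6 to 16 when a library was left out (9 without L28BME library 005, 6 without L28BME library 006). The 8 higher became 23 with plain library size and 4 to 8 when a library was left out. The 7 lower became 0 with plain library size, 2 with the total without let-7, 4 with DESeq2 and 1 at an adjusted p under 0.01. They became 2 to 11 when a library was left out. For an adjusted p under 0.01 no count over all features was taken, so those piRNA counts have no background. Calls over all features tested moved too, from 100 higher and 130 lower to 68 to 99 higher and 96 to 123 lower when a library was left out. With plain library size the signs turned for piR-5114 (0.39), piR-67522 (0.17), piR-67758 (0.17), piR-7805 (0.15), piR-68132 (0.032) and piR-58792 (0.25, not called under either scaling). The turns follow from the upward shift that this scaling gives all features. The small changes of piR-19271, piR-38315, piR-60414 and piR-69027, none of them called, also turned sign under some other alternatives. Plain library size and the total without let-7 move features up in L28BME, so among the alternatives they favour rises over falls. Of the 15 called features 6, all of them higher, kept the call in every alternative that gave a value. For piR-62566 and piR-68014 these were 15 of 18, since without any one L28BME library they did not pass the filter and were not tested. Depth limits the scarce members: 153 of the 268 had at most 3 reads in all.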

Other observations

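Some piRNA names carry consecutive numbers, which says nothing certain about shared sequence, and 13 such pairs occurred. In 2 of them both members were past the filter. piR-68681 had 30.4, 18.5 and 21.9 in L28BME and 27.4, 24.7 and 33.2 in ME. piR-68682 had 27.0, 19.2 and 21.5 in L28BME and 23.9, 27.1 and 33.7 in ME, values close to those of its neighbour in each library, and neither passed (limma adjusted p = 0.187 and 0.114). piR-68131 had 6.24, 3.55 and 5.93 in L28BME and 7.19, 6.84 and 9.49 in ME, far below the level of piR-68132, with a change of -0.52 that did not pass (limma adjusted p = 0.0587) beside the fall of -0.46 of piR-68132. If such neighbours share bases, counting could split reads between them, which was not tested.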
